A study of Mus musculus with 21 samples.

Results

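The genes of 9 hematopoietic cytokine receptor chains were examined in RNA sequencing of mouse hematopoietic stem cells (HSCs): Kit, Flt3, Csf1r, Csf2ra, Csf2rb, Csf3r, Il3ra, Epor and Il6st. They were taken by symbol, and all 9 were found among the 21000 genes of the count table. The table holds 21 libraries, 3 in each of 7 groups, and each library came from 3000–3500 bone marrow cells sorted as CD150+CD48-Lineage-Sca-1+c-Kit+. All mice carried a wild type genotype. Mice aged 10 weeks received PBS or 5-fluorouracil (5-FU, a cytotoxic drug that kills cycling blood progenitors and after which HSCs enter the cell cycle), at 150 mg/kg intraperitoneally, either once or 3 times with 21 days between administrations. HSCs were taken on day 6, which is 5 days after the last administration, in the groups named here PBS once, 5-FU once, PBS 3 times and 5-FU 3 times, and on day 21 after 5-FU once and 5-FU 3 times. PBS-treated cells of day 21 were not analysed here, so that day-21 cells were compared with the PBS cells of day 6. The seventh group (old) came from untreated mice aged 2 years, which differed from the PBS groups in age and in handling, and these cannot be told apart. By this schedule the mice given 3 administrations were also older at isolation than those given 1.

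Cytokine receptors are the sensors through which blood cells read growth factors. Kit, Flt3 and Csf1r are class III receptor tyrosine kinases, which pair up when stem cell factor, FLT3 ligand or CSF1 binds and then phosphorylate themselves. The other chains lack kinase activity and signal through JAK kinases that they hold, which activate STAT transcription factors. In HSCs, stem cell factor acting on Kit is among the best known maintenance signals, while the receptors for G-CSF, GM-CSF, IL-3 and erythropoietin are known mainly from committed myeloid and erythroid cells.

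The surface proteins of 2 of these genes were used in sorting. The c-Kit protein defined the gate, and the study's methods add the absence of Flt3 protein. At 5 days after 5-FU the methods also describe a gate widened to cells with dim c-Kit and an antibody mix without Mac-1, so for day 6 the treatment and the gate cannot be told apart. The 6 libraries of PBS once and 5-FU once at day 6 share a column suffix that the other 15 lack, of unstated meaning, so any comparison across that line carries it too. In bulk RNA, fewer cells of a type and less RNA per cell cannot be told apart. Total counts were 22184885 to 38649033 per library (median 26962256), and 3 counts, taken as the floor, were worth 0.085 to 0.128 CPM. Summed over 12 HSC marker genes, the libraries had 2701 to 4205 CPM, and over the 10 lymphoid markers in the table no library exceeded 9.88 CPM. Levels are given as CPM, counts scaled to a common library total, after TMM normalization over all 21 libraries, with the mean ± SD of the 3 libraries of a group. Fold changes and adjusted p-values are from the quasi-likelihood test of edgeR, fitted to all genes kept in the groups compared and adjusted by Benjamini-Hochberg over them, and a gene is said to have risen or fallen where the adjusted p was under 0.05. Where 3 libraries lay wholly above or below 3 others, the exact two-sided permutation test gave p = 0.1, the smallest that 20 assignments allow.

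Kit, Flt3, Csf3r and Csf2ra were the receptor genes that fell at day 6 after 5-FU once and after 5-FU 3 times, and the 300 bases around their starts are shown because these genes moved together. The sequences run from 250 bases before to 50 bases after the start that RefSeq lists first on GRCm38.p6, 5′ to 3′ on the gene's own strand, at chr5:75574737-75575036 (plus strand) for Kit, chr4:126024409-126024708 (plus strand) for Csf3r, chr19:61228369-61228668 (minus strand) for Csf2ra and chr5:147400440-147400739 (minus strand) for Flt3. Capitals mark GAGGAAG, the purine-rich letters that the ETS factor PU.1 is known to bind.
Kit: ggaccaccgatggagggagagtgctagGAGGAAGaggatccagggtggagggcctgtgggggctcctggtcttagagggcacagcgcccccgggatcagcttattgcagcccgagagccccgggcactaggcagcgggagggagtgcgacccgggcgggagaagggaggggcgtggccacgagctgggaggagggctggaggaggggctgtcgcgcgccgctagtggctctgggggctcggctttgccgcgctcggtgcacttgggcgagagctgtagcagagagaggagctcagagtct
Csf3r: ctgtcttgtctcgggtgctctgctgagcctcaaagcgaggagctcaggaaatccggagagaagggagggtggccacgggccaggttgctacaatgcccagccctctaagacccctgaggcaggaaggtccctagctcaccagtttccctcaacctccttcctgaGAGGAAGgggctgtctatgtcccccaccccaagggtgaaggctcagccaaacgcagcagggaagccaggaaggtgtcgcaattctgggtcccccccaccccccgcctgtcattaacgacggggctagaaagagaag
Csf2ra: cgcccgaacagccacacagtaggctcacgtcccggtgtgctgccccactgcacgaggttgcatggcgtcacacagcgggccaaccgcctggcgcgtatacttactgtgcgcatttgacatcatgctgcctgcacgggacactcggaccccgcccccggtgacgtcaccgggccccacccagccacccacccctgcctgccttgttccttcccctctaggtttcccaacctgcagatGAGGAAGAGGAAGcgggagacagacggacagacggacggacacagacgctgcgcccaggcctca
Flt3: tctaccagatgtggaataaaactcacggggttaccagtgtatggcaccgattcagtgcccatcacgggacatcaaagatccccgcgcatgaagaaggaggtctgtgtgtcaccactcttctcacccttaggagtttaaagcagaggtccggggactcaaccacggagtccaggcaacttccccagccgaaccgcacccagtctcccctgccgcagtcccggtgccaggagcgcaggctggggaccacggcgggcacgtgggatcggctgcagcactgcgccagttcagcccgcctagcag
GAGGAAG began 223 bases before the start in Kit (position -223), 86 before it in Csf3r (-86), and at -14 and -8 in Csf2ra, where the copies overlap by 1 base, while the Flt3 window did not contain it. RefSeq held a window for 7 of the 9 genes. Searched on both strands, GAGGAAG was in 3 of those 7 and in 13.5% of all 27025 promoter windows of this length. The 8 other sets of letters were searched in the same way. CACGTG (7.24% of windows) was in Flt3, TGTGGT (16.9%) and AGATAA (11.4%) were in Epor, AACTGC (13.7%) was in Il3ra, and CGGAAG (17.2%), TTCNNNGAA (8.47%), TTGCGCAA (0.185%) and CCACACCC (3.57%) were in none of the 7. These matches describe letters in the windows and are not evidence that a factor binds there.

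Per kilobase of the longest annotated transcript, which makes genes comparable, Kit was the highest of the 9 in every group and Csf3r the next. In PBS once, Kit stood at 205 CPM per kilobase, Csf3r at 27.0, Csf2rb at 7.44, Epor at 6.69, Csf2ra at 5.94, Flt3 at 5.86, Il6st at 2.61, Il3ra at 1.12 and Csf1r at 0.0212. Kit exceeded Csf3r by 6.76 to 8.12 times in the 3 libraries of that group. The order from Epor through Csf2ra to Flt3 was not settled, since each neighbour was above the next in 2 of 3 libraries. Kit alone made up 78.3% ± 1.08 (SD, n = 3) of the summed level per kilobase of the 9 genes in PBS once and 71.0% ± 0.530 in 5-FU once at day 6, and the libraries of these groups did not overlap (77.7% to 79.6% against 70.7% to 71.6%). In 5-FU once at day 6 Csf2rb reached 13.7 CPM per kilobase beside 14.6 for Csf3r, and the pair changed order in 1 of 3 libraries. These orders depended on the length used. Per kilobase of all annotated exons merged, Csf2rb stood at 9.26 and Csf3r at 14.1 in that group. By that length Epor (5.92) stood above Csf2rb (5.01) in PBS once.

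**Figure D1:**
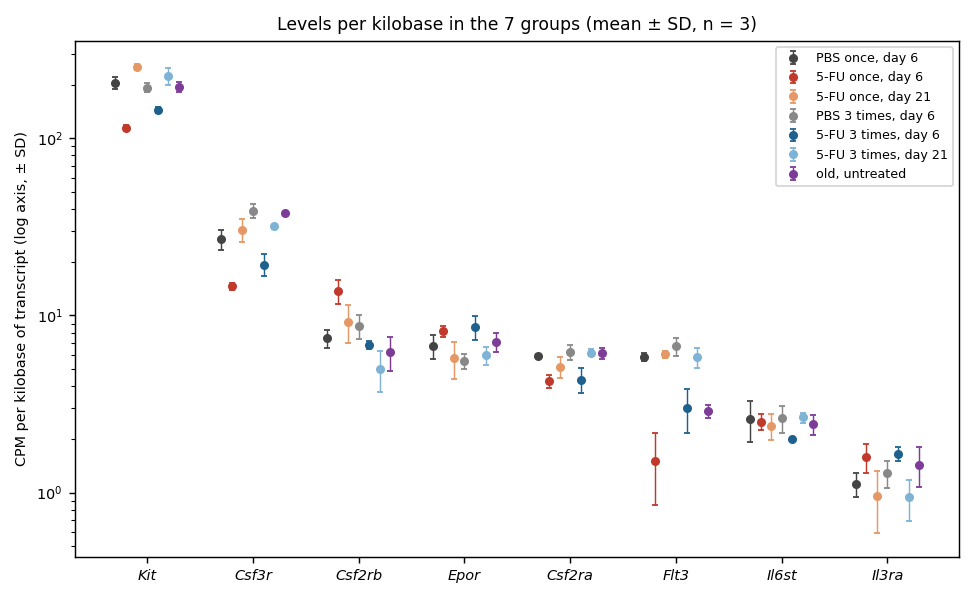
Mean level per kilobase of transcript (CPM per kilobase, log axis, ± SD of 3 libraries) of 8 receptor genes in the 7 groups, with Csf1r left out because most of its libraries were at 0. Kit lies between 114 and 252 in all groups with Csf3r next, and the other 6 genes lie below Csf3r.

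After 5-FU once, 5 of the 8 receptor genes tested changed at day 6 compared with PBS once. Kit, Flt3, Csf3r and Csf2ra fell and Csf2rb rose, and Il3ra, Epor and Il6st did not pass the test. Across all 12759 genes tested, 22.2% were called, 11.5% as higher and 10.6% as lower. The median log2 fold change of the 8 genes was -0.28, beside -0.00056 for all genes. After 5-FU 3 times compared with PBS 3 times, 5 of 8 changed again, beside 18.1% of 12729 genes (9.84% higher and 8.30% lower), and the median was -0.42 beside -0.01. Kit, Flt3, Csf3r and Csf2ra fell there too, while Epor rose and Csf2rb did not pass the test. This count of 5 was less stable, since it was 3 without replicate 1 of 5-FU 3 times at day 6, without replicate 2 of PBS 3 times or without replicate 3 of PBS 3 times. The calls lost in these fits were those of Csf2ra and Epor.

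**Figure D2:**
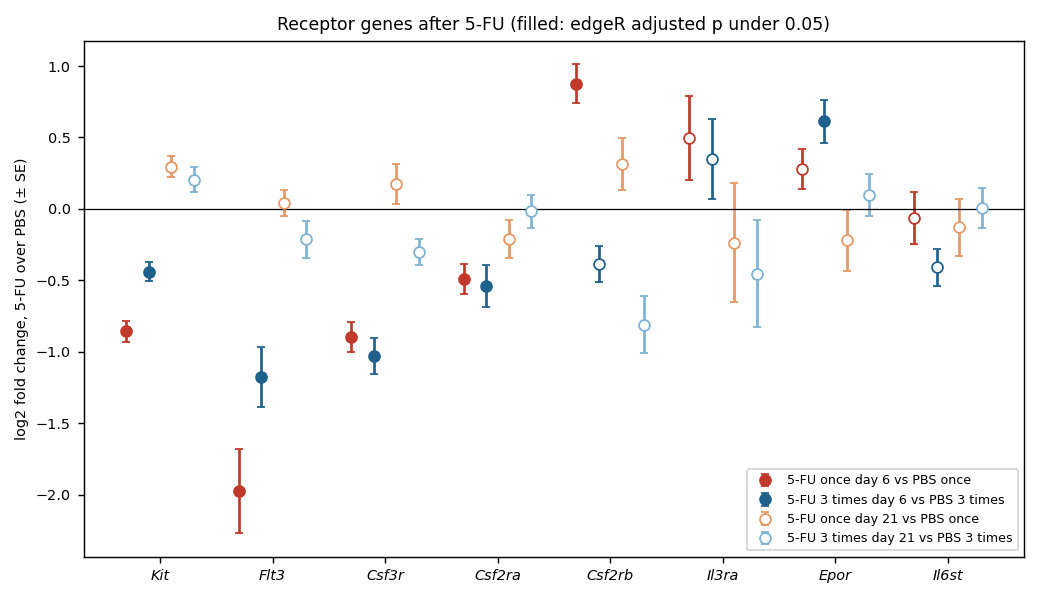
Log2 fold change (± SE) of 8 receptor genes in 4 comparisons of 5-FU with PBS, where filled points have an edgeR adjusted p under 0.05 and open points do not. The day-6 points of Kit, Flt3, Csf3r and Csf2ra are filled and below 0, and all day-21 points are open.

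Kit is the stem cell factor receptor that every HSC sort on c-Kit relies on (chr5:75574916-75656722, plus strand). In PBS once its libraries had 1162, 1074 and 989 CPM, and in 5-FU once at day 6 they had 583, 623 and 586. Every 5-FU library was thus well below every PBS library, and the log2 fold change was -0.86 (SE 0.07, adjusted p = 0.00111). The PBS 3 times libraries had 1044, 1043 and 948 CPM and the 5-FU 3 times libraries at day 6 had 778, 728 and 764. These groups did not overlap either, with a log2 fold change of -0.44 (SE 0.07, adjusted p = 0.00701). Kit lost 44.4% of its mean level after 5-FU once and 25.2% after 5-FU 3 times (percent changes -44.4 and -25.2), and the test of the difference between these effects gave 0.43 on the log2 scale (SE 0.10, adjusted p = 0.065), past no threshold in edgeR. DESeq2 gave an adjusted p of 0.00152 for it.

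By day 21 Kit stood at 1270, 1371 and 1319 CPM after 5-FU once and at 1142, 1063 and 1309 after 5-FU 3 times. Both groups lay above their own day-6 libraries, by 1.15 on the log2 scale after 5-FU once (SE 0.06, adjusted p = 0.000521) and by 0.64 after 5-FU 3 times (SE 0.09, adjusted p = 0.00429). The day-21 libraries also lay above all libraries of the matching PBS group, but the differences did not pass the test (0.30, SE 0.07, adjusted p = 0.155 after 5-FU once, and 0.21, SE 0.09, adjusted p = 0.374 after 5-FU 3 times). Libraries of old HSCs had 983, 1101 and 990 CPM and overlapped those of PBS once. In the order of group means, only 5-FU 3 times at day 6 and, below it, 5-FU once at day 6 were separated from the group above them without overlap.

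Flt3 encodes the receptor of FLT3 ligand and marks multipotent progenitors that have left the most primitive HSC state (chr5:147330741-147400489, minus strand). It had 24.5, 22.6 and 22.4 CPM in PBS once against 8.36, 3.22 and 6.28 in 5-FU once at day 6. All 5-FU libraries were lower, with a log2 fold change of -1.97 (SE 0.30, adjusted p = 0.0055), and this was the largest fall among the 9 genes. It had 12.5, 14.9 and 8.27 CPM in 5-FU 3 times at day 6 against 24.7, 29.9 and 24.7 in PBS 3 times. The groups did not overlap, and the log2 fold change was -1.18 (SE 0.21, adjusted p = 0.012). The difference between both effects was 0.81 (SE 0.39, adjusted p = 0.376).

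At day 21 Flt3 was back at 24.1, 24.8 and 22.6 CPM after 5-FU once, which is 2.01 above day 6 on the log2 scale (SE 0.30, adjusted p = 0.00477). It had 20.4, 26.1 and 22.2 CPM at day 21 after 5-FU 3 times, 0.95 above day 6 (SE 0.21, adjusted p = 0.0219). Without replicate 1 of 5-FU 3 times at day 6, or replicate 2 or 3 of the day-21 group, this last call was lost, with adjusted p of up to 0.0636. Flt3 was the receptor gene called in old HSCs, at 10.7, 11.0 and 12.5 CPM. Each old library was below each PBS once library, with a log2 fold change of -1.02 (SE 0.11, adjusted p = 0.00548). With PBS 3 times as the control, or without any 1 library, Flt3 remained called in old HSCs with log2 fold changes of -1.22 to -0.97 over all 15 alternatives.

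**Figure D3:**
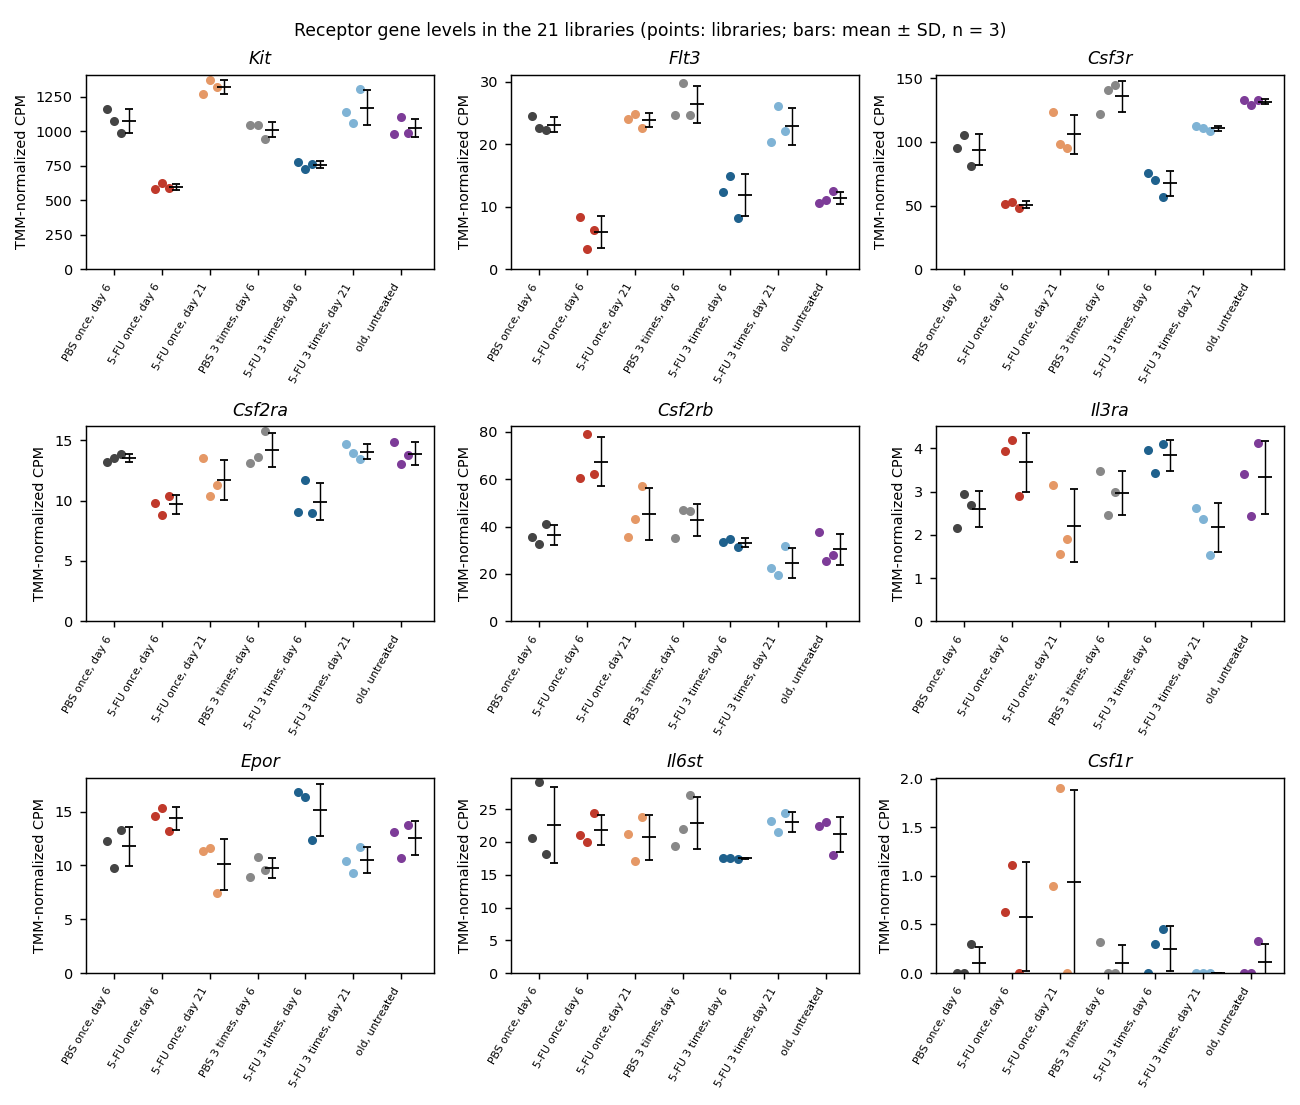
TMM-normalized CPM of the 9 receptor genes (1 panel each, axis from 0) in the 21 libraries, with points for libraries and bars for the mean ± SD of a group. Kit, Flt3 and Csf3r dip at day 6 after 5-FU, Csf2rb is highest in 5-FU once at day 6, and Csf1r stays below 2 CPM.

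Csf1r, the CSF1 receptor of monocytes and macrophages, had 0 counts in at least 1 library of every group. Its counts were 0, 0 and 7 in PBS once, 15, 30 and 0 in 5-FU once at day 6, and 23, 67 and 0 in 5-FU once at day 21. All 3 libraries of 5-FU 3 times at day 21 had 0 counts, against a floor of 3 counts. The remaining groups had counts of 16 or less in every library. Csf1r passed the filter on low counts in 2 of the 9 comparisons, was called in none of them, and reached at most 1.90 CPM, while 17.3% of the 75-base windows of its longest transcript also occur in its neighbour Hmgxb3.

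Csf3r, the receptor of G-CSF that drives granulocyte production and HSC mobilization, fell in both day-6 comparisons (chr4:126024550-126044440, plus strand). PBS once had 95.3, 105 and 80.9 CPM and 5-FU once at day 6 had 51.3, 53.0 and 48.1. The 5-FU libraries were all lower, with a log2 fold change of -0.90 (SE 0.11, adjusted p = 0.00286). PBS 3 times had 122, 140 and 145 CPM and 5-FU 3 times at day 6 had 75.7, 69.7 and 56.8, again without overlap (log2 fold change -1.03, SE 0.13, adjusted p = 0.00422). The effects of 1 and 3 administrations differed by -0.12 (SE 0.17, adjusted p = 0.801).

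Csf3r rose from day 6 to day 21, to 124, 98.6 and 95.3 CPM after 5-FU once (1.07, SE 0.12, adjusted p = 0.00179) and to 113, 111 and 108 after 5-FU 3 times (0.72, SE 0.12, adjusted p = 0.00716). The level in the controls itself was not even. PBS 3 times and old HSCs (133, 129 and 132 CPM) both lay wholly above PBS once, by 0.53 (SE 0.12, adjusted p = 0.185) and 0.48 (SE 0.11, adjusted p = 0.0775) on the log2 scale, neither of which passed the edgeR test. DESeq2 called both. Against PBS 3 times in place of PBS once, the old libraries were -0.05 lower, so the direction in old HSCs depended on the control. The sum of 14 myeloid progenitor and granulocyte markers moved with Csf3r at day 6, at 58.9 to 115 CPM in PBS once against 24.8 to 39.5 in 5-FU once, and 53.2 to 87.7 in PBS 3 times against 23.9 to 43.5 in 5-FU 3 times. Of these markers 6 fell and none rose among 12 tested after 5-FU once (for example S100a9, -2.99, SE 0.64, adjusted p = 0.0185), and 2 of 11 fell after 5-FU 3 times, beside 10.6% and 8.30% of all genes lower. Ctsg was at 0 in all libraries of PBS once and 5-FU once. Their part in the result was not tested.

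Csf2ra, Csf2rb and Il3ra form the GM-CSF and IL-3 receptors, in which an alpha chain chooses the ligand and a beta chain carries the JAK2 that signals. Csf2ra, the GM-CSF alpha chain (chr19:61223957-61228429, minus strand), had 13.2, 13.5 and 13.9 CPM in PBS once and 9.83, 8.85 and 10.4 in 5-FU once at day 6. The groups did not overlap (log2 fold change -0.49, SE 0.11, adjusted p = 0.0198). In PBS 3 times it had 13.2, 13.6 and 15.8 CPM and in 5-FU 3 times at day 6 it had 9.04, 11.7 and 8.98 (log2 fold change -0.54, SE 0.15, adjusted p = 0.0438). The first call was lost in 3 of the 6 refits on 5 libraries (PBS once replicate 2 or 3, or 5-FU once replicate 2) and the second in 5 of 6 (all but replicate 2 of 5-FU 3 times), with adjusted p of up to 0.0616 and 0.131. From day 6 to day 21 it rose after 5-FU 3 times, to 14.7, 14.0 and 13.5 CPM (0.51, SE 0.14, adjusted p = 0.0419), and had 13.5, 10.4 and 11.3 CPM after 5-FU once (0.28, SE 0.15, adjusted p = 0.193). The rise after 5-FU 3 times was lost in 5 of the 6 fits that left out a library (all but replicate 2 at day 6), with adjusted p of up to 0.125.

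Csf2rb encodes the beta chain shared by GM-CSF, IL-3 and IL-5 receptors (chr15:78325752-78353847, plus strand). It was the receptor gene whose day-6 response to 5-FU edgeR called different between 1 and 3 administrations. It had 35.7, 32.6 and 41.1 CPM in PBS once and 60.5, 79.3 and 62.3 in 5-FU once at day 6. All 5-FU libraries were higher, with a log2 fold change of 0.88 (SE 0.14, adjusted p = 0.00614). After 5-FU 3 times at day 6 the values were 33.5, 34.9 and 31.4 CPM, against 35.1, 46.8 and 46.5 in PBS 3 times. Here the 5-FU libraries were all lower, with a log2 fold change of -0.39 (SE 0.13, adjusted p = 0.079) that did not pass the test. The interaction of 5-FU with the number of administrations was -1.25 (SE 0.20, adjusted p = 0.017), and Csf2rb was the 1 receptor gene of 9 called, beside 0.650% of 13227 genes (0.340% higher and 0.310% lower). This call was lost at an adjusted p of 0.0569 without replicate 1 of PBS once (-1.23), and at 0.0506 with all 21 libraries in a single fit (-1.25). Since the column suffix separates the groups given 1 administration from those given 3, the suffix and the number of administrations cannot be told apart in this test.

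By sum, monocyte and macrophage markers lay higher at day 6 after 5-FU once, where Csf2rb rose. Their median log2 fold change there was negative. The sum of 12 such markers was 66.8 to 79.6 CPM in PBS once and 85.5 to 93.9 in 5-FU once, without overlap, against 67.2 to 74.3 in PBS 3 times and 63.1 to 82.8 in 5-FU 3 times, which overlapped. Of 9 tested after 5-FU once, 2 rose and none fell, beside 22.2% of all genes called and 11.5% higher. Those were Irf8, a transcription factor of monocytes (1.95, SE 0.25, adjusted p = 0.00357), and Cd68, a lysosomal protein of macrophages (0.75, SE 0.17, adjusted p = 0.0197). The median log2 fold change of the 9 was -0.20. Lyz2, the most abundant of the 12, had a mean of 44.3 CPM in PBS once and 38.9 in 5-FU once. Cx3cr1 was at 0 in all libraries of PBS once and 5-FU once. After 5-FU 3 times edgeR called none of 10 tested, with 1 at an unadjusted p under 0.05 and 1 called by DESeq2. The median of these 10 was 0.39, while Csf2rb lay lower there. The part of these markers in the result was not tested.

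At day 21 Csf2rb had 35.5, 43.0 and 57.3 CPM after 5-FU once and 22.4, 19.6 and 31.7 after 5-FU 3 times. The first group overlapped PBS once (0.31, SE 0.18, adjusted p = 0.502). The second lay wholly below PBS 3 times but did not pass the test (-0.81, SE 0.20, adjusted p = 0.175). Old HSCs had 37.6, 25.4 and 28.0 CPM (-0.27, SE 0.16, adjusted p = 0.52).

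The neighbouring gene Csf2rb2 encodes the IL-3-specific beta chain of mice and is close in sequence, and 10.7% of the 75-base windows of the longest Csf2rb transcript also occur in another gene, mainly Csf2rb2. How reads that fit both were counted is not given in the sources used here, so their split is uncertain. Csf2rb2 had 20.5, 18.5 and 21.1 CPM in PBS once and 26.7, 26.4 and 27.6 in 5-FU once at day 6, all higher (0.41, SE 0.09, adjusted p = 0.0159). That call was lost with all 21 libraries in a single fit (adjusted p = 0.114) and without replicate 3 of 5-FU once at day 6 (adjusted p = 0.0518). In PBS 3 times it had 17.9, 18.6 and 13.6 CPM, and in 5-FU 3 times at day 6 it had 14.0, 12.98 and 14.2 (-0.30, SE 0.14, adjusted p = 0.172). Its interaction was -0.71 (SE 0.16, adjusted p = 0.069). With the counts of both genes summed into 1, the log2 fold change was 0.73 after 5-FU once (adjusted p = 0.00555), -0.36 after 5-FU 3 times (adjusted p = 0.0424), and the interaction was -1.08 (adjusted p = 0.0139).

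**Figure D4:**
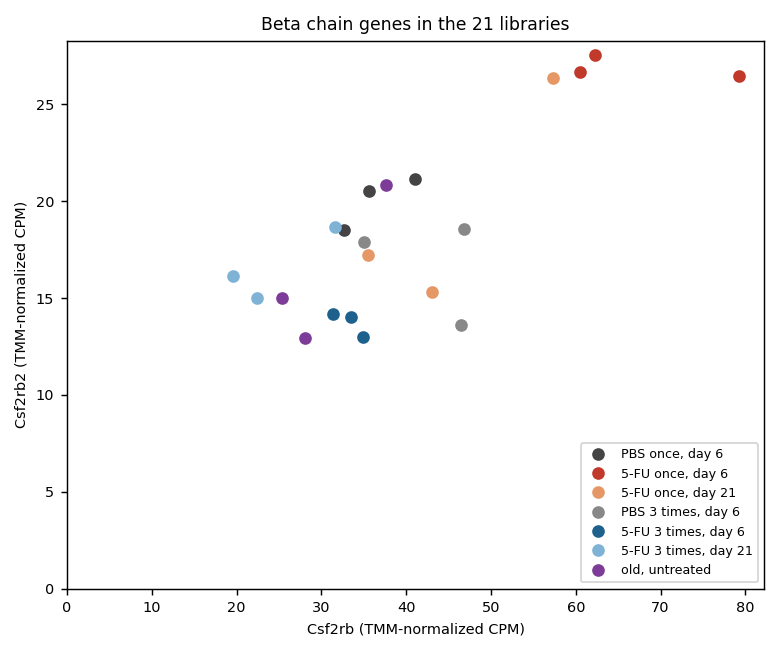
Csf2rb (x axis) against Csf2rb2 (y axis) in TMM-normalized CPM, with 1 point per library and both axes from 0. The 3 libraries of 5-FU once at day 6 lie at the upper right, above 60 CPM for Csf2rb and above 26 CPM for Csf2rb2, and those of 5-FU 3 times at day 6 lie below 35 and 15 CPM.

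Il3ra, the IL-3 alpha chain (chr14:14346275-14356011, plus strand), was low, with 39 to 145 counts per library. It had 2.15, 2.95 and 2.70 CPM in PBS once and 3.95, 4.19 and 2.91 in 5-FU once at day 6, and 1 of the 5-FU libraries lay within the PBS range (0.49, SE 0.29, adjusted p = 0.262). In PBS 3 times it had 3.47, 2.45 and 2.99 CPM and in 5-FU 3 times at day 6 it had 3.97, 3.44 and 4.11, with overlap (0.35, SE 0.28, adjusted p = 0.425). It was called in none of the 9 comparisons. By group mean it was lowest at day 21, at 3.16, 1.56 and 1.90 CPM after 5-FU once and 2.62, 2.38 and 1.54 after 5-FU 3 times. Both groups overlapped their PBS group and did not pass the test against it (adjusted p = 0.842 and 0.653).

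Epor, the erythropoietin receptor (chr9:21958897-21963506, minus strand), rose after 5-FU 3 times. It had 8.94, 10.8 and 9.56 CPM in PBS 3 times and 16.8, 16.3 and 12.4 in 5-FU 3 times at day 6. The groups did not overlap (log2 fold change 0.61, SE 0.15, adjusted p = 0.0335). This call was lost in 5 of the 6 fits that left out a library, all but the fit without replicate 3 of 5-FU 3 times, with adjusted p of up to 0.0956, and with scaling by library size only (adjusted p = 0.0694). In PBS once it had 12.3, 9.74 and 13.3 CPM and in 5-FU once at day 6 it had 14.6, 15.3 and 13.2, which overlapped (0.28, SE 0.14, adjusted p = 0.195), and the effects differed by 0.35 (SE 0.21, adjusted p = 0.488). At day 21 it had 11.4, 11.6 and 7.40 CPM after 5-FU once and 10.4, 9.32 and 11.7 after 5-FU 3 times, below all day-6 libraries in both cases but not past the test (adjusted p = 0.0942 and 0.0547). Erythroid markers did not move one way with Epor. Of 8 tested, 2 rose and 3 fell after 5-FU 3 times, beside 9.84% of all genes higher and 8.30% lower. Among those that rose was the globin gene Hbb-bs (1.51, SE 0.14, adjusted p = 0.00225). Among those that fell were Car1 (-10.55, SE 1.58, adjusted p = 0.0141) and Ermap (-7.50, SE 1.47, adjusted p = 0.0277), both at 0 in all libraries of 5-FU 3 times at day 6. With no counts in that group, the size of these fold changes is not a measured ratio. The sum of the erythroid markers was 1304 to 1543 CPM in PBS 3 times and 1098 to 1145 in 5-FU 3 times, mostly Car2, and Slc4a1 was at 0 in both.

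Il6st encodes gp130, the signalling chain shared by the IL-6, IL-11 and LIF receptors (chr13:112464070-112510086, plus strand). It had 20.6, 29.1 and 18.1 CPM in PBS once and 21.0, 20.0 and 24.4 in 5-FU once at day 6, with overlap (-0.06, SE 0.18, adjusted p = 0.827). After 5-FU 3 times at day 6 it had 17.6, 17.5 and 17.4 CPM, all below the 19.5, 22.0 and 27.2 of PBS 3 times, but the difference did not pass the test (-0.41, SE 0.13, adjusted p = 0.075). By day 21 after 5-FU 3 times it stood at 23.2, 21.5 and 24.5 CPM and had risen from day 6 (0.41, SE 0.09, adjusted p = 0.0206). That call was lost in 5 of the 6 fits that left out a library, all but the fit without replicate 2 at day 21, with adjusted p of up to 0.0677, and with all 21 libraries in a single fit (0.40, adjusted p = 0.0892).

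In the comparisons of day 21 with day 6, 3 of 9 genes tested rose after 5-FU once (Kit, Flt3 and Csf3r) and none fell, beside 26.0% of 12589 genes called (12.3% higher and 13.7% lower). The corresponding count after 5-FU 3 times was 5 of 8, all higher (these and Csf2ra and Il6st), beside 19.5% of 12553 genes (8.68% higher and 10.8% lower). The number called in either direction was 2 without replicate 1 of 5-FU 3 times at day 6 and 3 without replicate 1, 2 or 3 of the day-21 group. Without replicate 3 of the day-21 group, the genes called were Kit and Csf3r, which rose, and Csf2rb, which fell. At day 21 against PBS none of 8 genes was called by edgeR after 5-FU once (0.221% of 12647 genes called, 0.0712% higher and 0.150% lower) or after 5-FU 3 times (0.0475% of 12632, 0.0396% higher and 0.00792% lower). At an unadjusted p under 0.05 there was 1 after 5-FU once (Kit) and 2 after 5-FU 3 times (Csf2rb and Csf3r), and DESeq2 called 1 and 2. In old HSCs 1 of 8 was called (Flt3), beside 1.88% of 12855 genes (1.44% higher and 0.443% lower). Between PBS 3 times and PBS once edgeR called none of 8 (0.0156% of 12806 genes, 0.00781% in each direction), with 1 at an unadjusted p under 0.05 (Csf3r), and DESeq2 called 1.

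By separation of libraries alone, 4 of the 9 genes lay wholly below and 1 wholly above PBS once in 5-FU once at day 6, beside 45.0% of 12064 genes with a mean of at least 1 CPM (20.0% below and 25.0% above). In 5-FU 3 times at day 6 the numbers were 6 below and 1 above, beside 41.5% of 11999 genes (18.0% below and 23.5% above). At day 21 against PBS 1 gene lay above and none below after 5-FU once, beside 21.2% of 11984 genes (10.6% above and 10.5% below), and 1 above and 2 below after 5-FU 3 times, beside 21.6% of 11989 genes (11.3% above and 10.4% below). From day 6 to day 21, 3 genes moved wholly above and 2 (Epor and Csf2rb) wholly below after 5-FU once, beside 47.3% of 11955 genes (21.2% above and 26.1% below). The numbers after 5-FU 3 times were 5 above and 2 below, beside 42.1% of 11909 genes (19.5% above and 22.6% below). Old HSCs had 1 gene above and 1 below PBS once, beside 20.7% of 12155 genes (11.2% above and 9.52% below), and PBS 3 times had 2 above (Flt3 and Csf3r), beside 20.5% of 12075 genes (10.2% in each direction).

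Among 22 other cytokine receptor genes, 17 were tested after 5-FU once, of which 3 rose and 4 fell (median log2 fold change -0.05), beside 22.2% of all genes called. Il18r1, the IL-18 receptor (-2.02, SE 0.29, adjusted p = 0.0049) and Il1r1, the IL-1 receptor (-1.06, SE 0.16, adjusted p = 0.00545), fell, and Il2rg, the common gamma chain of lymphoid cytokine receptors, rose (0.93, SE 0.06, adjusted p = 0.000597). Of 18 tested, 2 rose after 5-FU 3 times and 4 fell (median -0.17), beside 18.1% of all genes. Those that fell included Il6ra, the IL-6 alpha chain that pairs with Il6st (-1.44, SE 0.16, adjusted p = 0.00283), and Il11ra1, the IL-11 alpha chain (-0.57, SE 0.08, adjusted p = 0.00552). Il6ra had 16.0 to 22.5 CPM in PBS 3 times and 6.46 to 7.90 in 5-FU 3 times, and it also fell after 5-FU once, from 15.2 to 20.5 CPM down to 12.7 to 13.8 (-0.44, SE 0.13, adjusted p = 0.0457), with an interaction of -0.99 (SE 0.20, adjusted p = 0.0574).

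The JAK and STAT genes, which carry the signal of the chains without kinase activity, mostly fell after 5-FU once: 8 of 11 fell and 1 rose (median -0.35), beside 10.6% of all genes lower and 11.5% higher. Examples were Stat5a (-0.58, SE 0.06, adjusted p = 0.00227) and Jak2 (-0.41, SE 0.07, adjusted p = 0.00736), the STAT and kinase best known downstream of Epor and Csf2rb. The number that fell was 2 of 11 after 5-FU 3 times, beside 8.30% of all genes lower: Stat2 (-0.66, SE 0.12, adjusted p = 0.0138) and Stat3 (-0.31, SE 0.08, adjusted p = 0.0394), and the median of the interactions was 0.17. None of these interactions was called by edgeR, with 2 at an unadjusted p under 0.05 and 2 called by DESeq2. From day 6 to day 21, 8 of 11 rose after 5-FU once, beside 12.3% of all genes higher, and 4 after 5-FU 3 times, beside 8.68%.

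Of 20 inhibitors of receptor signalling, 4 rose and 2 fell after 5-FU once (median 0.11), beside 22.2% of all genes called, and 3 rose and 1 fell after 5-FU 3 times (median 0.07), beside 18.1%. The second count is near that background. Socs2, a feedback inhibitor induced by STAT5, had 96.9 to 138 CPM in PBS once and 320 to 389 in 5-FU once (1.62, SE 0.14, adjusted p = 0.00113), with an interaction of -1.18 (SE 0.23, adjusted p = 0.0486). Dok2, an adaptor that dampens kinase signalling, rose after 5-FU once (1.07, SE 0.08, adjusted p = 0.000778) and after 5-FU 3 times (0.92, SE 0.08, adjusted p = 0.00225). Sh2b3, an inhibitor of Kit signalling, rose too (0.69, SE 0.07, adjusted p = 0.00176, and 0.57, SE 0.12, adjusted p = 0.023). Cish fell after 5-FU 3 times (-0.69, SE 0.12, adjusted p = 0.0102). Among 11 STAT target genes 3 rose and none fell after 5-FU once, with Id1, an inhibitor of basic helix-loop-helix factors that other signals also induce, at 2.95 (SE 0.14, adjusted p = 0.000321), and 2 rose and 3 fell after 5-FU 3 times, beside the same 22.2% and 18.1%. Of 16 adaptors and kinases, 3 fell after 5-FU once (Gab1, Lyn and Vav1), beside 22.2% of all genes called and 10.6% lower. After 5-FU 3 times edgeR called none of the adaptors and kinases, with 4 at an unadjusted p under 0.05 and 4 called by DESeq2.

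Among the 13 ligand genes, Csf3, Il3, Epo and Thpo were at 0 in all 21 libraries, and Csf2 was at 0 in every group except old HSCs. Csf1 had group means of 17.5 to 27.3 CPM. Flt3l had group means of 6.19 to 8.23 CPM. No ligand gene was called by edgeR in either day-6 comparison (5 and 6 tested), with 1 and 2 at an unadjusted p under 0.05 and 1 called by DESeq2 in each. Kitl, which encodes stem cell factor, had 1.54 to 3.13 CPM in PBS once and 0.148 to 0.883 in 5-FU once (adjusted p = 0.0649), but 0 to 0.225 CPM in PBS 3 times and 1.08 to 2.15 in 5-FU 3 times (adjusted p = 0.0615).

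In old HSCs, beside the fall of Flt3, 1 of 19 other cytokine receptor genes tested rose, beside 1.88% of all genes called. This was Osmr, the oncostatin M receptor that pairs with Il6st, with 2.41 to 11.3 CPM in old HSCs and at most 0.0371 CPM, below the floor, in PBS once. It had 0 to 4.05 CPM in PBS 3 times.

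Across the 21 libraries, which share the 7 groups, the gene most like Kit was Adgrg1, an adhesion receptor typical of HSCs (Pearson r = 0.98 of log2(CPM + 0.5) over 10490 genes with a mean of at least 5 CPM), followed by Angpt1 (0.963) and Gprasp1 (0.941). Paqr8 (0.938), Trf (0.937) and H2-Ob (0.921) were most like Flt3, and Sat1 (0.926), Treml2 (0.924) and Dhrs3 (0.923) most like Csf3r. For Csf2ra these were Krt18 (0.936), Creg1 (0.916) and Pik3ip1 (0.901), and for Csf2rb Evl (0.818), Igf1 (0.804) and F5 (0.785). For Il3ra they were Bcap31 (0.837), Rpl15 (0.835) and Pwp1 (0.833), for Epor Mrps22 (0.822), Gtf3a (0.821) and Ube2n (0.808), and for Il6st Zfp689 (0.738), Zfp61 (0.709) and Mysm1 (0.698). Between members, Csf2ra and Csf3r had r = 0.827 and Kit and Flt3 r = 0.793, while Kit and Il3ra had r = -0.717 and Kit and Epor r = -0.644. These values describe the libraries and carry no test.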

How the data were processed

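RNA was sequenced from sorted mouse HSCs in 21 libraries, made with a SMART-Seq v4 and Nextera XT protocol and read as single ends of 75 bases. Per the submitters' processing notes, TopHat2 2.0.13, Cuffdiff and Cufflinks 2.2.1 were used with mm10. The authors deposited raw counts, whole numbers per gene symbol without normalization. The counting program and its handling of strand and multiply aligned reads are not given in the sources used here. The study describes 3 experiments per group and pooled samples without saying how many animals each library holds, so p-values measure the spread between libraries only. Pairs of libraries of 1 group differed by 17.6 to 39.1 times the sampling variance, so none was a copy.

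The members and gene lists were chosen with earlier results of these data known. Named genes were the 9 members, Csf2rb2, ligands and partners of members, up to 4 genes per list with the largest fold change past the threshold, and the 3 genes most alike each member. Osmr and Il6ra values were named under that rule, and S100a9, Hbb-bs, Car1, Ermap, Irf8, Cd68 and Lyz2 as marker genes. Some genes that the rule would name are not reported here.

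Each comparison was fitted in edgeR 4.0.16 (R 4.3.3) with filterByExpr, TMM and the quasi-likelihood F test on the libraries of the groups compared (12 for the interaction), at an adjusted p of 0.05. Scripts were tested on simulated data. Lengths, positions and 75-base windows came from GENCODE vM21 on GRCm38, and promoters from RefSeq on GRCm38.p6. Alternatives were relative log expression factors, library size only, DESeq2 1.42.0, a replicate block, a joint fit of all 21 libraries, 2 other count filters (at least 1 count in total, or at least 10 per library), PBS 3 times as control, merged exon lengths, leaving out each library, and, chosen after seeing the data, Csf2rb and Csf2rb2 summed. Depth limits Csf1r, which had 0 counts in at least 1 library of every group.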

Additional observations from a re-analysis of the deposited data

Results flagged for a closer look

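The response to 5-FU at day 6 differed between 1 and 3 administrations, by an interaction test, for 4 of the genes named. Over all genes, 0.650% of 13227 were called in that test, and these 4 are listed because they were among them. Csf2rb rose after 5-FU once (0.88) and lay lower after 5-FU 3 times (-0.39), with an interaction of -1.25 (SE 0.20, edgeR adjusted p = 0.017). The 3 libraries of 5-FU once were all above PBS once and the 3 of 5-FU 3 times all below PBS 3 times. Over the 20 alternatives the interaction ran from -1.39 to -1.08, with adjusted p of 1.69e-06 to 0.0569, and it missed the threshold with all 21 libraries in a single fit and without replicate 1 of PBS once.

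Socs2 had an interaction of -1.18 (SE 0.23, edgeR adjusted p = 0.0486) and Il2rg one of -0.46 (SE 0.08, edgeR adjusted p = 0.0325). Socs2 had 320 to 389 CPM in 5-FU once at day 6 and 118 to 152 in 5-FU 3 times, against 96.9 to 138 and 79.6 to 115 in the PBS groups. Il2rg had 259 to 276 and 224 to 239 CPM, against 137 to 144 and 157 to 169. The globin gene Hbb-bs had an interaction of -1.33 (SE 0.22, edgeR adjusted p = 0.0246), with a log2 fold change of 2.85 after 5-FU once and 1.51 after 5-FU 3 times. The number of administrations, the age at isolation and the unexplained column suffix cannot be told apart in these tests. The adjusted p of Socs2 lies close to the threshold, and refits of Socs2, Il2rg and Hbb-bs are not given here.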

How the results depend on the processing

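The 20 calls of receptor genes kept their direction in all 287 refits, and 35 of these missed the threshold. The counts of receptor genes called that moved by over 1.5 times were as follows. With DESeq2 the count was 2 in place of 1 for the interaction, 1 in place of 0 for 5-FU once at day 21 against PBS once, 2 in place of 0 for 5-FU 3 times at day 21, 2 in place of 1 for old HSCs and 1 in place of 0 for PBS 3 times. With all 21 libraries in 1 fit it was 0 for the interaction, 5 in place of 3 for day 21 against day 6 after 5-FU once, and 2 for old HSCs. Leaving out 1 library gave 3 to 5 for 5-FU 3 times at day 6, 0 to 1 for the interaction and 2 to 4 for day 21 against day 6 after 5-FU 3 times. The cause was not tested.

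The replicate numbers do not pair the libraries, since the deviations of same-numbered libraries correlated at -0.0277 to 0.0734. With the replicate block the count for 5-FU 3 times at day 6 was 3, and the genes called over the table fell from 2310 to 1509 in that comparison. The calls of Csf2ra (adjusted p = 0.0829) and Epor (0.0601) were lost there under the block, as was that of Csf2ra from day 6 to day 21 after 5-FU 3 times (0.0633). With a filter of at least 1 count Csf2ra missed the threshold in the same comparisons (0.0546 and 0.0525).

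Without normalization factors (library size only) the median of all genes shifted by -0.11 for 5-FU 3 times at day 6 and 0.12 for its day 21 against day 6, and the share of called genes that were higher moved from 54.2% to 35.6% and from 44.4% to 63.5%. Relative to that median Epor was 0.63 and Kit -0.43 in the former. Over all genes DESeq2 called 715 in place of 86 for the interaction, 725 in place of 28 and 592 in place of 6 for day 21 after 5-FU once and 3 times, 824 in place of 242 for old HSCs and 547 in place of 2 between the PBS groups. The joint fit of 21 libraries called 257, 185 and 19 in place of 28, 6 and 2. Leaving out 1 library gave 1563 to 1947 genes in place of 2827 for 5-FU once at day 6, 1231 to 1582 in place of 2310 for 5-FU 3 times, 38 to 170 for the interaction, 1 to 32 and 1 to 4 for day 21 after 5-FU once and 3 times, 1736 to 2978 and 1351 to 1744 in place of 3272 and 2450 for day 21 against day 6, 111 to 150 for old HSCs and 0 to 1 between the PBS groups, so the background shares move too. The lowest counts came without replicate 2 of 5-FU once and without replicate 3 of 5-FU 3 times at day 6, and for the interaction without replicate 1 of PBS once (38), the highest without replicate 2 of 5-FU 3 times (170).

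Direction turned in values that were not called. With library size only these were Flt3 at day 21 after 5-FU once (-0.027), Csf2ra in old HSCs (-0.00059) and Il6st between the PBS groups (-0.0052). With PBS 3 times as control they were, at day 21 after 5-FU once, Flt3 (-0.15), Csf3r (-0.36), Epor (0.053) and Csf2rb2 (0.24), and in old HSCs Kit (0.0078), Csf2ra (-0.039) and Csf3r (-0.055). Leaving out 1 library gave ranges that crossed 0 for Il6st after 5-FU once at day 6 (-0.20 to 0.16), at day 21 after 5-FU once (-0.27 to 0.10) and 3 times (-0.091 to 0.15), from day 6 to 21 after 5-FU once (-0.17 to 0.065), in old HSCs (-0.24 to 0.12) and between the PBS groups (-0.13 to 0.25). They also crossed 0 for Csf2ra in the interaction (-0.17 to 0.047), at day 21 after 5-FU 3 times (-0.063 to 0.071), in old HSCs (-0.0089 to 0.076) and between the PBS groups (-0.017 to 0.12), for Csf2rb2 at day 21 after 5-FU once (-0.30 to 0.12) and 3 times (-0.14 to 0.071), for Epor in old HSCs (-0.039 to 0.18), and for Csf1r in the interaction (-5.91 to 3.33) and from day 6 to 21 after 5-FU once (-0.37 to 1.59). Kit and Csf3r stayed highest per kilobase in 7 of 7 groups with merged exon lengths and with library size only.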
